A study of Mus musculus with 12 samples.

Results

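Matrix metalloproteinases and their tissue inhibitors were followed across 4 groups of fibroblasts from mouse embryos, cells that lay down and remodel connective tissue. The members are the 10 genes Mmp2, Mmp3, Mmp9, Mmp10, Mmp13, Mmp14, Timp1, Timp2, Timp3 and Timp4, chosen by symbol, of 19057 named genes on the array. They carry 18 of its 45281 probes. The cells were Sirt2+/+ (wild type) or Sirt2-/- (knockout, lacking a protein deacetylase found mostly in the cytoplasm), left untreated or given the mouse type I interferon IFNβ (interferon beta) for 4 h at 2500 IU/ml. Each of the 4 groups has 3 samples, each with its own single-colour Illumina bead array. Whether these 3 came from separate embryos or cultures is not stated in the labels, and p-values therefore cover only the spread between them, which may be technical. They also do not describe how the deletion was made.

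Matrix metalloproteinases are zinc-dependent enzymes, most of them secreted as inactive precursors, that cut collagens, proteoglycans and other proteins outside the cell. Mmp2 and Mmp9 encode gelatinases, Mmp3 and Mmp10 stromelysins, Mmp13 an interstitial collagenase, and Mmp14 a membrane-bound enzyme that activates the precursor of Mmp2. The 4 Timp genes encode inhibitors that bind the active site of these enzymes. Fibroblasts are a main source of both, and the stromelysin and collagenase genes are known for their induction by growth factors and cytokines through AP-1 factors.

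Levels are log2 intensities after background correction and scaling between arrays, so a difference of 1 is a 2-fold change. A probe counts as detected on an array where its detection p-value, set against the negative controls of the array, is under 0.05. Between 17091 and 18155 probes were detected per array, and Pearson's r across probes between any 2 arrays of the same group lay from 0.993 to 0.996 (probes are not independent replicates). The number of arrays limits the precision. All 9 measured mesenchymal markers were detected on every wild-type array, and 8 of the 9 on every knockout array. The macrophage markers Ptprc, Adgre1 and Itgam and the endothelial markers Pecam1, Kdr and Emcn were detected in no group, and 0 of 7 neutrophil markers were detected throughout any group. Of the same lists, the macrophage marker Cd14 was detected on all 12 arrays and the endothelial marker Esam on 10. Sirt2 itself, as a check of the labels, ranged from 8.72 to 9.22 on the wild-type arrays and from 5.85 to 6.65 on the knockout arrays. The untreated knockout arrays were not alike. Of 233 genes detected on all 6 wild-type arrays and on no treated knockout array, 21 were detected on untreated knockout array 1, 60 on array 2 and 40 on array 3. Of 82 genes detected on all 6 treated arrays and on no untreated wild-type array, 22, 50 and 51 were detected on these arrays. Other arrays stood apart in sex-linked genes. Xist ranged from 9.44 to 10.32 on the wild-type arrays. In the knockout it was not detected on array 1 of either state, at 4.27 and 4.36, but was detected on arrays 2 and 3, at 6.85 and 6.07 untreated and at 6.32 and 5.05 under interferon. Eif2s3y, on the Y chromosome, ranged from 9.39 to 9.70 in the knockout. In wild type it was detected on treated array 2 alone, at 6.78 against 4.32 to 4.65 on the other arrays, and that array was also the only wild-type one to detect Mmp23. Leaving out treated wild-type array 2, or any other single array, ended no call of a member. Some results are also given without untreated knockout arrays 2 and 3, which leaves 1 untreated knockout array, assumed to vary like the other groups. Others are given with all arrays only, and their size can shift without these.

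Of the 10 members, 8 were detected on all 3 arrays of at least 1 group and were tested, 5 of the 6 metalloproteinases and 3 of the 4 inhibitors. Mmp9, the gelatinase typical of white blood cells, stood between 4.53 and 4.89 on all 12 arrays and was detected on 0 of them. Timp4, an inhibitor known mainly from heart and brain, was detected on 1 of 12 arrays and stood between 4.32 and 4.98. Both lie in the background range, which bounds them from above and says nothing about differences between the groups. The tested probe is the one with the highest mean where a gene has several.

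**Figure D1:**
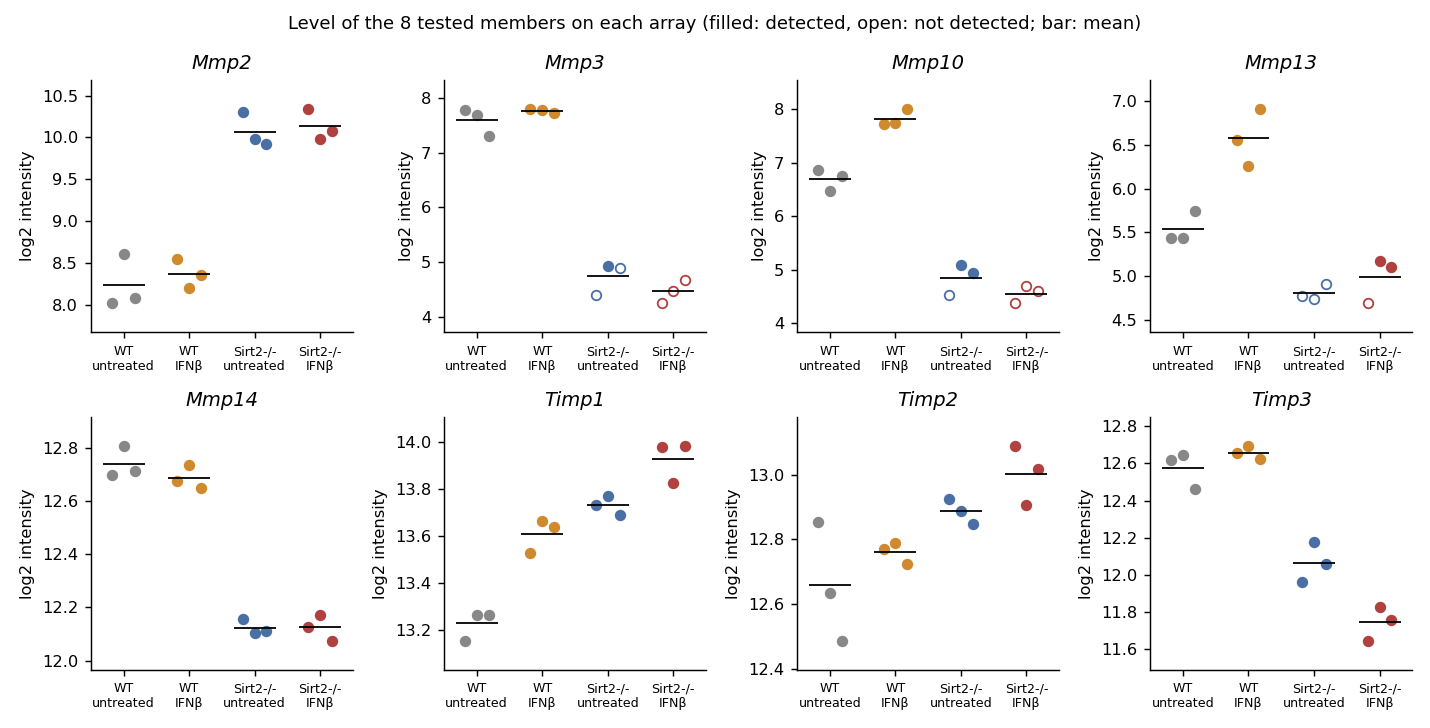
Log2 intensity of the 8 tested members on each of the 12 arrays, by group (WT, wild type). Filled points are detected, open points are not, and bars are group means. Mmp3 and Mmp10 are at or near background on all knockout arrays, while Mmp2 is higher on all of them.

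Knockout fibroblasts held more Mmp2 and less Mmp14 transcript than wild-type fibroblasts, with and without interferon. Mmp2, the gelatinase that cuts denatured collagen and basement membrane collagen, stood at 8.02, 8.60 and 8.08 on the untreated wild-type arrays and at 10.31, 9.98 and 9.92 on the untreated knockout arrays. Under interferon it stood at 8.55, 8.20 and 8.36 in wild type and at 10.34, 9.98 and 10.08 in the knockout. All 6 knockout values lay above all 6 wild-type values. The knockout was higher by 1.83 ± 0.17 on the log2 scale (SE, n = 3 arrays per group, limma, adjusted p = 1.29e-06), or 3.57-fold, without interferon, and by 1.76 ± 0.17 (adjusted p = 1.89e-06) with it. Without untreated knockout arrays 2 and 3 the untreated difference was 2.07 (limma, adjusted p = 2.96e-05).

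Mmp14, the membrane-anchored activator of pro-Mmp2, moved the opposite way. Its untreated values were 12.70, 12.81 and 12.71 in wild type and 12.16, 12.10 and 12.11 in the knockout. Under interferon they were 12.68, 12.74 and 12.65 in wild type and 12.13, 12.17 and 12.08 in the knockout. Each genotype kept within a narrow band and the bands did not overlap. The log2 difference was −0.62 ± 0.08 (limma, adjusted p = 4.35e-05) without and −0.56 ± 0.08 (adjusted p = 9.40e-05) with interferon. A further probe annotated to Mmp14 was detected on 2 of 12 arrays and carries no usable level.

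The stromelysins Mmp3 and Mmp10 and the collagenase Mmp13 were lower in the knockout, in both states. Mmp3, which cuts proteoglycans, fibronectin and other metalloproteinase precursors, stood at 7.77, 7.68 and 7.30 on the untreated and at 7.79, 7.78 and 7.71 on the treated wild-type arrays. On the untreated knockout arrays it stood at 4.40, 4.94 and 4.90, detected on array 2 alone. On the treated knockout arrays it stood at 4.26, 4.48 and 4.68 and was detected on none. The untreated log2 difference was −2.84 ± 0.16 (SE, n = 3 per group, limma, adjusted p = 3.47e-08). Under interferon Mmp3 was at least 7.0-fold lower in the knockout (limma, adjusted p = 1.38e-08). Such a lower bound takes, for each dim array, the higher of the probe's own value and the lowest detected signal of the array. It holds for the background-corrected levels only. The other 2 probes of Mmp3 were detected on no knockout array, and gave at least 2.03-fold and 3.84-fold lower levels untreated and at least 2.86-fold and 4.42-fold lower levels under interferon.

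Mmp10, a stromelysin close to Mmp3 in sequence and substrates, stood at 6.87, 6.46 and 6.76 on the untreated wild-type arrays. In the untreated knockout it stood at 4.52, 5.08 and 4.95, detected on arrays 2 and 3. Under interferon the values were 7.72, 7.75 and 8.01 in wild type and 4.37, 4.69 and 4.60 in the knockout, where no array detected it. The genotypes did not overlap in either state. The log2 difference was −1.85 ± 0.16 (limma, adjusted p = 7.20e-07) untreated, and Mmp10 was at least 7.29-fold lower under interferon (adjusted p = 1.13e-08). Arrays 2 and 3 of the untreated knockout, where Mmp10 was detected, are those that also detected more of the genes otherwise seen in wild type. Their part in this level was not tested. Against untreated knockout array 1 alone, where neither gene was detected, Mmp3 was at least 6.29-fold and Mmp10 at least 3.40-fold lower.

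Mmp13, which cuts fibrillar collagen, was measured by 1 of its 3 probes. That probe read 5.44, 5.44 and 5.75 in untreated and 6.56, 6.26 and 6.92 in treated wild type. In the knockout it read 4.78, 4.74 and 4.91 untreated, detected on no array, and 4.69, 5.17 and 5.11 under interferon, detected on arrays 2 and 3. It was at least 1.54-fold lower in the untreated knockout (limma, adjusted p = 0.00263), and its log2 difference under interferon was −1.59 ± 0.17 (adjusted p = 5.06e-06). The other 2 probes were detected on 2 and 0 of the 12 arrays, so the Mmp13 result rests on 1 dim probe. The sizes of the Mmp3, Mmp10 and Mmp13 differences depend on the background correction. In the authors' deposited log2 values, which have none, they were −1.30, −0.72 and −0.22 untreated and −1.54, −1.53 and −0.61 under interferon, all still past the threshold (limma, highest adjusted p = 0.0315, that of untreated Mmp13).

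These 3 genes lie close together in the mouse genome, and their promoters are shown because the genes were lower together in the knockout. In the RefSeq table (GRCm38.p6), 10 metalloproteinase genes follow each other on chromosome 9 with no other protein-coding gene starting among them, in the order Mmp13, Mmp12, Mmp1b, Mmp3, Mmp1a, Mmp10, Mmp8, Mmp27, Mmp20 and Mmp7. The windows run from 250 bases before to 50 bases after the start of the gene, on the plus strand, at chr9:7445572-7445871 for Mmp3, chr9:7502092-7502391 for Mmp10 and chr9:7272264-7272563 for Mmp13. Capitals mark matches to the AP-1 motif TGANTCA and to the TATA box letters TATAAA.
Mmp3: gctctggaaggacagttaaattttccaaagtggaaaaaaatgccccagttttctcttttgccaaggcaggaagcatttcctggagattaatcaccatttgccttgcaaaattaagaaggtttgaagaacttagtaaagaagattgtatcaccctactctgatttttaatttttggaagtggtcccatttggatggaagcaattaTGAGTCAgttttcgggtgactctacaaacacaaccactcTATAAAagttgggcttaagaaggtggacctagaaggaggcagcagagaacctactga
Mmp10: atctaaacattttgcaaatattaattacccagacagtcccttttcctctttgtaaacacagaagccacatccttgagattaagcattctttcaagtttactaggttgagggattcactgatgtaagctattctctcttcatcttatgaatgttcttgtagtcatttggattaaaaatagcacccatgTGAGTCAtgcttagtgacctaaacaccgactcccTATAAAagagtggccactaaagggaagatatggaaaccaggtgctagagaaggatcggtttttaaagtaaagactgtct
Mmp13: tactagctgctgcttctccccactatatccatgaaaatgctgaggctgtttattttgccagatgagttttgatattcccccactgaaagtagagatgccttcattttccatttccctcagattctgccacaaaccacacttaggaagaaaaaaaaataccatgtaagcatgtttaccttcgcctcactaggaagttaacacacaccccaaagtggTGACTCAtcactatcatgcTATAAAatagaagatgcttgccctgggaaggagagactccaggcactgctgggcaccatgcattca
The AP-1 letters stand from base −46 to −40 before the start in Mmp3, from −63 to −57 in Mmp10 and from −35 to −29 in Mmp13, each upstream of the TATA letters. Of the 8 members with a promoter in the table, these 3 hold the AP-1 letters and these 3 the TATA letters. Of 32851 promoter windows in the table, 7.81% hold the AP-1 letters, 13.6% the TATA letters and 1.54% both, on either strand. Of the 10 genes of the cluster, 8 hold both, counted per gene. They include Mmp1a, the other detected gene of the cluster, whose genotype difference did not pass. Mmp12 and Mmp7 have 2 windows each, so in them the AP-1 and TATA letters need not share a window. Mmp13 also matches the core of the interferon-stimulated response element (GAAA, any 2 bases, GAAA) on the minus strand from −146 to −137, as do 3.44% of all windows. No member matched TTCNNNGAA, the letters of the gamma-activated site, which 8.30% of windows hold. The looser NF-kB letters (GGG, any 5 bases, CC) were found in 5 members, all outside the cluster, and in 50.8% of all windows. A match is not a measured binding site.

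**Figure D2:**
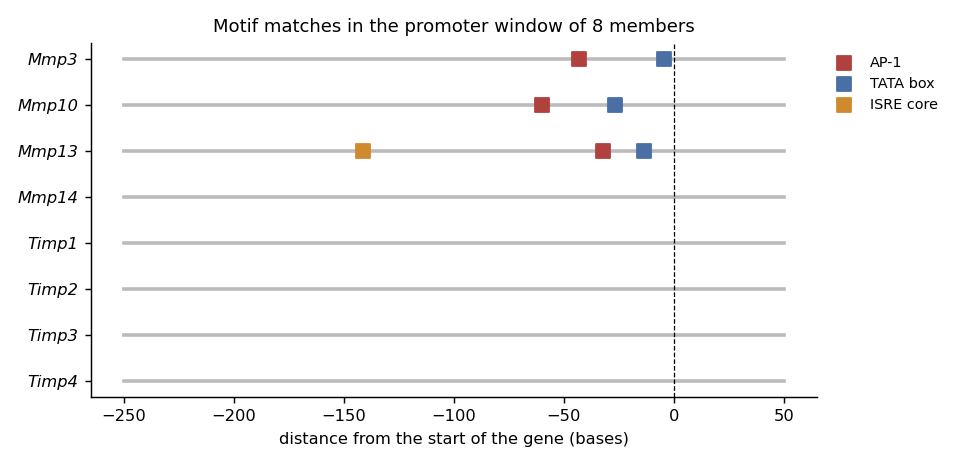
Motif matches against the distance in bases from the start of the gene, for the 8 members with a promoter in the RefSeq table. Squares mark AP-1, TATA box and interferon response element letters; grey lines are the windows searched. AP-1 and TATA letters appear in Mmp3, Mmp10 and Mmp13.

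The rest of the cluster was mostly not detected. Mmp12, Mmp1b, Mmp8, Mmp20 and Mmp7 were detected on 0 of 12 arrays by their 1 probe each, and Mmp27 had no probe. Mmp1a, a collagenase gene that lies between Mmp3 and Mmp10 and was singled out after its values were seen, was detected on all 12 arrays by 1 of its 3 probes. It ranged from 5.61 to 6.40 in wild type and from 5.59 to 6.09 in the knockout, with overlapping groups. Its log2 difference of −0.22 ± 0.20 without interferon (limma, adjusted p = 0.384) and of −0.09 ± 0.20 with it (adjusted p = 0.73) did not pass.

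Among the inhibitors, Timp1 was higher and Timp3 lower in the knockout, and Timp2 did not pass. Timp1, a soluble inhibitor encoded on the X chromosome, stood at 13.15, 13.27 and 13.27 in untreated wild type. In the untreated knockout it stood at 13.73, 13.77 and 13.69. Under interferon it stood at 13.53, 13.67 and 13.64 and at 13.98, 13.83 and 13.98. The genotypes did not overlap in either state. The knockout was higher by 0.50 ± 0.09 (limma, adjusted p = 0.000416) without and by 0.32 ± 0.09 (adjusted p = 0.0093) with interferon, and the other Timp1 probe gave 0.58 and 0.47.

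Timp3, an inhibitor that is bound to the matrix and also blocks ADAM proteases, stood at 12.62, 12.64 and 12.46 in untreated wild type and at 11.96, 12.18 and 12.06 in the untreated knockout. Under interferon it stood at 12.66, 12.69 and 12.62 in wild type and at 11.65, 11.83 and 11.76 in the knockout. All knockout arrays were below all wild-type arrays. The log2 difference was −0.51 ± 0.10 (limma, adjusted p = 0.000691) untreated and −0.91 ± 0.10 (adjusted p = 4.83e-06) under interferon. The 3 Timp3 probes disagreed. The probe of middle brightness gave −0.35 (adjusted p = 0.123 over all 17837 kept probes) and −0.71 (adjusted p = 0.00528). The dimmest, detected on 11 of 12 arrays, gave a difference of the opposite sign untreated, 0.43 (adjusted p = 0.0388), with overlapping groups, and −0.19 (adjusted p = 0.352) under interferon.

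Timp2, which inhibits Mmp2 and also takes part in its activation by Mmp14, stood at 12.85, 12.64 and 12.49 in untreated wild type and at 12.93, 12.89 and 12.85 in the untreated knockout. Under interferon it stood at 12.77, 12.79 and 12.72 in wild type and at 13.09, 12.91 and 13.02 in the knockout. The untreated groups overlapped and the treated ones did not. The difference was 0.23 ± 0.10 (limma, adjusted p = 0.0834) without and 0.24 ± 0.10 (adjusted p = 0.0682) with interferon. It passed with the authors' deposited values (adjusted p = 0.0368 and 0.028) and without untreated wild-type array 1 (0.33, adjusted p = 0.0157, and 0.24, adjusted p = 0.0341).

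**Figure D3:**
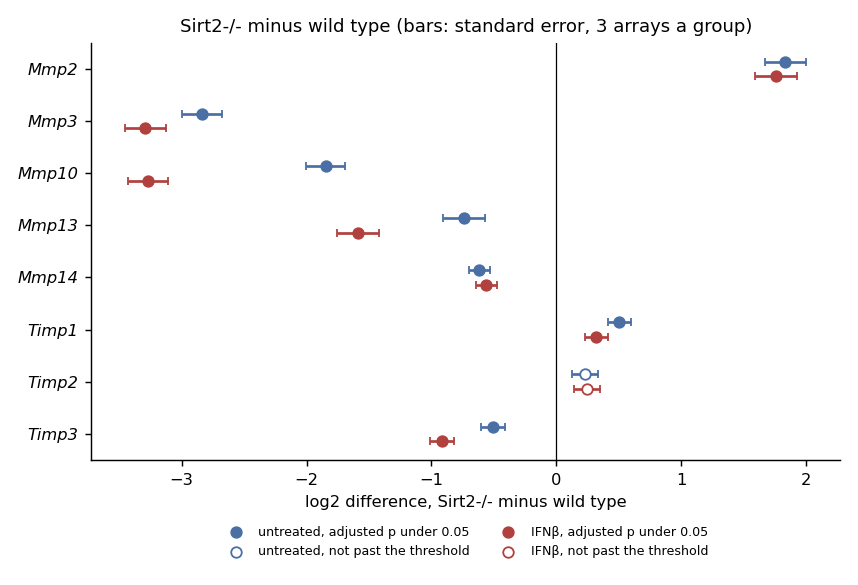
Log2 difference, knockout minus wild type, of the 8 tested members, untreated and under interferon beta. Points are limma estimates, bars standard errors, and open points did not pass an adjusted p of 0.05. Mmp3 and Mmp10 under interferon and Mmp13 untreated are fitted against background. Mmp2 and Timp1 lie above 0 and Mmp3, Mmp10, Mmp13, Mmp14 and Timp3 below 0 in both states.

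**Figure D4:**
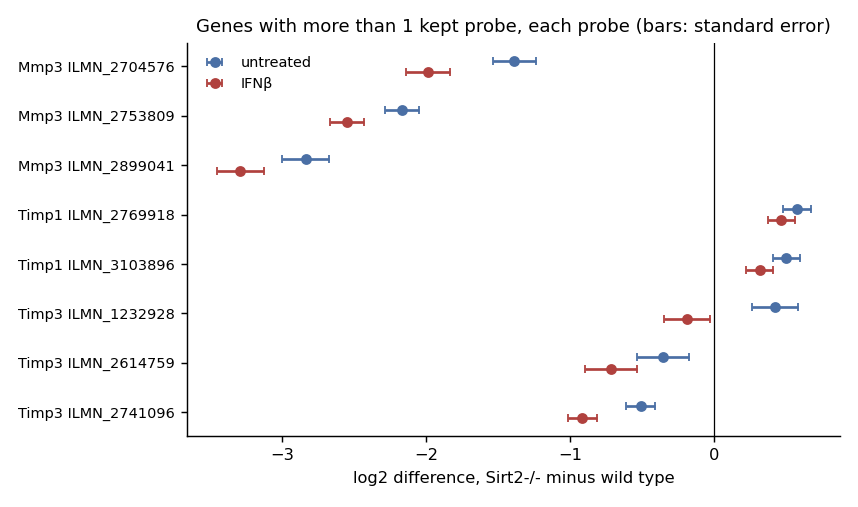
Log2 difference, knockout minus wild type, for each kept probe of the 3 genes with more than 1, with standard errors (Mmp3 largely against background). The 3 Mmp3 probes and the 2 Timp1 probes share their sign, while 1 Timp3 probe is at 0.43 untreated against −0.35 and −0.51 for the others.

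In count, 2 of the 8 tested members were higher and 5 lower in the knockout, with and without interferon. Over all 12128 genes tested, 27.1% were higher and 24.2% lower untreated, and 27.1% and 23.2% under interferon, so that 51.3% and 50.3% differed in either direction. Of these 12128, 9723 are named genes. The rest are kept probes without 1 gene symbol, each counted as a gene in the shares over all genes. The median log2 difference of the tested members was −0.56 untreated and −0.74 under interferon, against 0.05 and 0.06 over all genes. It stayed at these values with genes undetected in a whole group set at their bounds. In both states it lay between the values of Mmp14 and Timp3, detected on all 12 arrays, so this says little about background. At least 2-fold differences were found in Mmp2, Mmp3 and Mmp10 untreated, and in Mmp13 too under interferon. Among all genes 4.85% were higher and 7.75% lower by that much untreated, and 4.74% and 7.74% under interferon. Without untreated knockout arrays 2 and 3, 7 members still passed in each comparison. Marker levels moved with genotype as well. The summed linear level of the mesenchymal markers lay between 27940 and 34290 on the untreated wild-type arrays and between 15200 and 16510 on the untreated knockout arrays, and between 26290 and 26610 against 13560 and 13950 under interferon. Of the 9 measured, 7 were lower and 0 higher in the untreated knockout, and 7 lower and 1 higher under interferon. Thy1 differed most untreated, at a mean log2 level of 13.31 in wild type and 10.32 in the knockout. Col1a1 stood 0.42 higher in the untreated knockout and did not pass (limma, adjusted p = 0.0742). The summed level of the 10 chondrocyte and osteoblast markers, of which 2 to 4 were detected throughout a group, lay between 5704 and 6523 against 1412 and 1767 untreated, and between 4502 and 4639 against 1108 and 1211 under interferon. Most of this sum was Sox9, whose log2 level was 12.49 in untreated wild type and 10.12 in the untreated knockout. Acan of the same list went the other way and was higher in the knockout by 3.25 ± 0.16 untreated (limma, adjusted p = 1.28e-08) and at least 7.92-fold under interferon. The defining markers Bglap, Sp7, Col10a1 and Matn1 were detected in no group. Summed epithelial markers, 3 of 7 detected throughout each wild-type and 1 of 7 throughout each knockout group, lay between 821.8 and 1094 against 213.3 and 253.9 untreated, and between 934.3 and 1072 against 199.9 and 212.3 under interferon, with Epcam and Cldn4 detected in no group. The part of these differences in the member results was not tested. The summed macrophage markers, 1 of 9 of them detected throughout each group, lay between 626.5 and 657.4 against 351.7 and 377.0 untreated, and between 587.7 and 686.3 against 335.6 and 359.8 under interferon. The detected marker was Cd14, at a mean log2 level of 8.88 in untreated wild type and 7.55 in the untreated knockout. Ptprc, Adgre1, Itgam, Tyrobp, Laptm5, Cybb and Lyz2 were detected in no group, so the sum does not measure macrophage content. The sex-linked genes Xist and Eif2s3y moved with genotype as well. The sex of the cells, and whatever else sets these populations apart, cannot be told apart from genotype. This holds also for Timp1, which lies on the X chromosome. In bulk RNA, fewer cells of a type and less RNA per cell cannot be told apart.

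Mmp10, Mmp13 and Timp1 rose under interferon in wild-type fibroblasts, and no member passed in the knockout. Mmp10 rose in wild type by a log2 difference of 1.13 ± 0.16 (SE over 3 arrays per group, limma, adjusted p = 0.000289), Mmp13 by 1.03 ± 0.17 (adjusted p = 0.00105) and Timp1 by 0.38 ± 0.09 (adjusted p = 0.0123). For each of them the 3 treated arrays given above lay over the 3 untreated ones. The other Timp1 probe gave 0.29 (limma, adjusted p = 0.0626 over the kept probes). In the authors' deposited log2 values, without background correction, the rises of Mmp10 and Mmp13 were 0.70 and 0.44, both still past the threshold. The 5 remaining members, Mmp2, Mmp3, Mmp14, Timp2 and Timp3, had wild-type log2 differences between −0.05 and 0.18, with overlapping groups. The dimmest Mmp3 probe passed with 0.53 (limma, adjusted p = 0.0354) and the dimmest Timp3 probe with 0.70 (adjusted p = 0.0109), in contrast to the tested probes of these genes (0.18 and 0.08). Over all genes 6.27% were higher and 7.56% lower in this comparison (13.8% in either direction), against 3 and 0 of the 8 members. With median scaling the split over all genes was 5.73% and 10.3%.

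In the knockout, 0 of 8 members passed the response test (limma, adjusted p under 0.05), and 2, Timp1 and Timp3, had an unadjusted p under 0.05, as did 19.3% of all genes. Timp1 stood 0.20 ± 0.09 higher under interferon (adjusted p = 0.246), with groups that did not overlap. Timp3 stood at −0.32 ± 0.10 (adjusted p = 0.0705), again without overlap. Its call depends on the processing. It passed with the authors' deposited values (limma, −0.31, adjusted p = 0.0185), median scaling (−0.35, adjusted p = 0.0385), an offset of 50 (−0.32, adjusted p = 0.0379) and array weights (−0.35, adjusted p = 0.0249). Without untreated knockout arrays 2 and 3 it was −0.22 (adjusted p = 0.526). Over all genes 4.30% were higher and 2.31% lower (6.61% in either direction), or 3.84% and 7.31% with median scaling. For Mmp3 and Mmp10 the treated knockout arrays give background only, so their knockout response has no measured level. For Mmp13 the untreated knockout arrays give background only, which limits its knockout response in the same way.

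The difference between the genotypes' responses passed for Mmp10 alone among the members, at −1.42 ± 0.22 (limma, knockout minus wild type, adjusted p = 0.0103), where 0.388% of all genes were lower and 0.503% differed in either direction. Without untreated knockout arrays 2 and 3 it was −1.09 ± 0.24 and did not pass (adjusted p = 0.126). In the authors' deposited log2 values the Mmp10 difference was −0.81 and still passed. The Mmp10 value compares a rise in wild type with levels at or near background in the knockout. The value of Mmp13, with the same limit, was −0.85 ± 0.24 (limma, adjusted p = 0.218) and that of Timp3 −0.41 ± 0.14 (adjusted p = 0.375). The order of group means was the same for Mmp10 and Mmp13 among the wild-type groups, treated above untreated without overlap, with both knockout groups below and overlapping each other. For Timp1 the order was untreated wild type, treated wild type, untreated knockout and treated knockout, and neighbours in this order did not overlap.

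**Figure D5:**
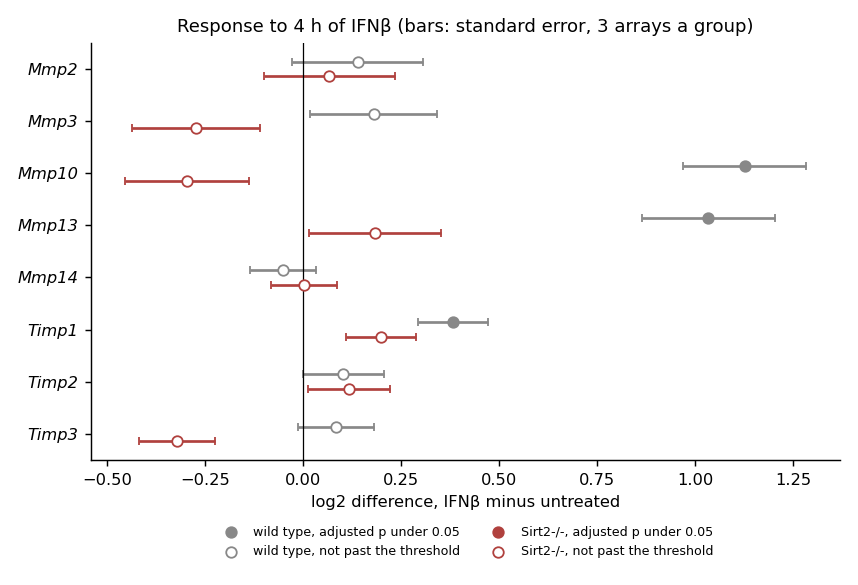
Log2 difference, interferon beta minus untreated, of the 8 tested members in wild type and knockout, with standard errors. Filled points passed an adjusted p of 0.05: Mmp10, Mmp13 and Timp1 in wild type and none in the knockout.

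Other genes that make, activate or hold back such proteases were counted in 4 lists, against the 27.1% higher, 24.2% lower and 51.3% in either direction found over all genes in the untreated genotype comparison. Of 17 other metalloproteinase genes listed, 6 were tested, of which 3 were higher and 1 lower in the untreated knockout, with a median log2 difference of 0.27 (all genes 0.05). Mmp23 was detected on no untreated wild-type array and was at least 6.70-fold higher in the knockout (limma, adjusted p = 1.52e-07). Mmp16, a membrane-type enzyme related to Mmp14, was at least 2.55-fold higher (adjusted p = 1.64e-06). Both bounds depend on the background correction. In the authors' deposited log2 values, which have none, the log2 differences were 1.40 for Mmp23 and 0.63 for Mmp16. Mmp28 was higher by 0.53 ± 0.12 (adjusted p = 0.00226, or 0.0722 without untreated knockout arrays 2 and 3). Mmp11, known as stromelysin-3, stood at −0.72 ± 0.12 (adjusted p = 0.000241). It also fell by 0.57 with interferon in wild type (adjusted p = 0.00658). Of 26 ADAM and ADAMTS proteases, which include shedding enzymes and proteases of proteoglycans, 12 were tested, 1 was higher and 5 lower, with a median of −0.17. The share in either direction was close to the 51.3% over all genes. The share higher lay below 27.1% and the share lower above 24.2%. Adamts12 stood at −2.28 ± 0.17, Adamts7 at −1.74 ± 0.19 and Adam9 at −1.08 ± 0.24, while Adam12 was higher by 1.03 ± 0.13 (limma, highest adjusted p = 0.00223, that of Adam9). Adamts6 rose by 1.03 ± 0.17 with interferon in wild type (limma, adjusted p = 0.000871). Adamts7 passed there too, at −0.64 ± 0.19 (adjusted p = 0.0463), but not under 9 alternatives, among them those without untreated wild-type array 1 (−0.46, adjusted p = 0.176) or 2 (−0.69, 0.0673), treated wild-type array 2 (−0.48, 0.16) or 3 (−0.67, 0.0871), or treated knockout array 2 (−0.64, 0.0604) or 3 (−0.64, 0.0563).

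Of 18 genes that activate metalloproteinases or control them at the cell surface, 11 were tested, 3 were higher and 6 lower in the untreated knockout, with a median of −0.36. Plat and Plau, which encode the tissue and urokinase activators of plasminogen, stood at −2.21 ± 0.13 (limma, adjusted p = 4.93e-08) and −1.20 ± 0.17 (adjusted p = 8.08e-05). Pcsk6, a proprotein convertase, was higher by 1.13 ± 0.14 (adjusted p = 2.60e-05). Tspan12, a tetraspanin, was at least 1.26-fold lower (adjusted p = 1.92e-05). Reck, a membrane-anchored metalloproteinase inhibitor, fell by 0.63 with interferon in wild type (± 0.13, adjusted p = 0.00504), and so did Cav1, a membrane scaffold protein gene, by 0.54 (adjusted p = 0.0133). The Cav1 value did not pass without untreated wild-type array 1 (−0.44, adjusted p = 0.0568), treated wild-type array 1 (−0.52, 0.0508) or treated wild-type array 3 (−0.47, 0.0565). In the knockout 0 of the 11 passed for a response (limma), where 6.61% of all genes did.

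The last list of 13 holds AP-1 and ETS factors, which bind promoters of stromelysin and collagenase genes, and Runx2. Fosl1 and Runx2 had no annotated probe, and the other 11 were tested. Of these 2 were higher and 6 lower in the untreated knockout, with a median of −0.28. Fosb, an AP-1 partner, ranged from 7.55 to 8.12 on the untreated wild-type and from 5.17 to 6.21 on the untreated knockout arrays, a difference of −2.16 ± 0.22 (limma, adjusted p = 3.58e-06). The ETS factors Etv4 and Etv5 stood at −2.08 ± 0.14 (adjusted p = 1.13e-07) and −1.21 ± 0.17 (adjusted p = 4.97e-05). Junb, another AP-1 partner, was higher by 1.14 ± 0.10 (adjusted p = 7.69e-07). With interferon, 2 of the 11 rose and 2 fell in wild type, against 6.27% and 7.56% of all genes. In the knockout Ets2 rose by 0.56 ± 0.11 (limma, adjusted p = 0.007) and Elk3 fell by 0.61 (± 0.12, adjusted p = 0.00697). Both moved the same way in wild type, without overlap. Mean log2 levels there were 10.25 untreated and 10.80 treated for Ets2, and 8.27 and 7.69 for Elk3.

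The genes whose levels ran most like Mmp2 over the 12 arrays, by the root mean square difference of log2 values centred per gene, were Fam20a at 0.16, Fsd1 at 0.17 and Scly at 0.17. Those most like Mmp3 were Cdc42ep2 at 0.18, Ceacam1 at 0.19 and Gap43 at 0.22. Those most like Mmp10 were P2ry14 at 0.26, Rftn1 at 0.29 and Hoxd4 at 0.29. These likenesses describe arrays that share groups and scaling.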

How the data were processed

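RNA was measured in 12 samples, 3 in each of 4 groups taken from the sample titles. Per the labels' protocols, biotinylated RNA was made from 150 ng of total RNA. The authors deposited an intensity per probe and array, neither background-subtracted nor scaled, each with a detection p-value per the file headers. The authors also deposited log2 values, which equal the quantile-normalized log2 of these intensities within 0.000639, so no background was subtracted from them. The sources used here do not name the scanner software.

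Background was removed by normexp, with the negative controls inferred through the detection p-values. After adding 16 to every value, arrays were quantile-normalized (neqc method, limma 3.58.1, R 4.3.3). Of 45281 probes, 34885 have 1 gene symbol, 18 several and 10378 none. The 17837 probes detected on all 3 arrays of at least 1 group were kept. The kept probe with the highest mean stood for each gene, and kept probes without 1 symbol stood for themselves, giving 12128 features, 9723 of them named genes. Group means of the 12 arrays were fitted with limma and 5 contrasts tested two-sided, adjusted by Benjamini-Hochberg over all features, threshold 0.05. The test of the untreated genotype difference was tried on simulated data, and the other 4 contrasts of the same fit were not. Alternatives covered scaling, offset, detection filter, probes, samples, array weights and the replicate block. Members, gene lists and motifs were chosen with earlier results of these data known. Listed genes are named by size, up to 4 per list by the untreated genotype difference and up to 2 by interferon response. Promoters are RefSeq's (GRCm38.p6), matched by symbol for 8 of 10 members, without Mmp2 and Mmp9.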

Additional observations from a re-analysis of the deposited data

Results flagged for a closer look

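The response of Mmp10 to interferon differed between the genotypes, by −1.42 on the log2 scale (knockout minus wild type, limma, adjusted p = 0.0103), in a test of the difference itself. Over the alternatives the adjusted p ranged from 0.000647 to 0.126. In the authors' deposited log2 values, without background correction, the difference was −0.81. Mmp10 was detected on no treated knockout array and on 2 of 3 untreated ones.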

How the results depend on the processing

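The 40 member results (8 members in 5 comparisons) were recomputed under 872 alternatives in all. In 834 they kept direction and side of the threshold. In 26 the sign turned with no call on either side, 11 gained a call (7 for Timp2 genotype differences, 4 for the Timp3 response in the knockout), 1 lost one (Mmp10, difference of the responses, without untreated knockout arrays 2 and 3) and 0 reversed a call. The number of members called for the knockout response was 0 and became 1 with the authors' deposited values, median scaling, an offset of 50 or array weights. That for the difference of the responses was 1 and became 0 without untreated knockout arrays 2 and 3. Over all genes, the knockout response called 802 genes, 1352 with median scaling and 493 without those arrays. The difference of the responses called 61 genes, 94 with the deposited values, 96 with an offset of 50, 115 with array weights, 40 without those arrays, and between 38 and 175 with 1 array left out, the lowest without untreated knockout array 2 (39 without treated wild-type array 1) and the highest without untreated knockout array 1. The cause was not tested. Replicate numbers are shared between groups, but deviations of same-numbered arrays correlated between −0.118 and 0.176, over 0.1 in 4 of 18 pairs, so the numbers were not taken as pairing. A fit with the replicate number as a block called 6197 and 6126 genes for the genotype differences, 1574 and 731 for the responses and 61 for their difference, and called 7, 7, 3, 0 and 1 members. The slide as a block was not run, since the headers name no slides. Signal over background limits Mmp3, Mmp10 and Mmp13 in the knockout.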
